A study of Oryza sativa Indica Group with 2 samples.

Results

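Transposon-derived genes of rice were taken as the genes of the deposited table whose best-hit description names a transposon, a transposase, a retrovirus-related protein, RICESLEEPER or a hAT dimerisation domain. The descriptions searched were those of the best hit in Swiss-Prot, a curated protein database, and in NR, the NCBI non-redundant protein collection. These words occurred in 179 of 35677 genes. Of the 179 genes 47 were further chosen by their measured level, a mean of 1 FPKM or more over the libraries, and are described here. FPKM divides a gene's reads by the length of its transcript and the size of the library. The seedlings belonged to the Oryza sativa Indica Group and were at the tillering stage, when side shoots form. WT, the wild type, gave 1 library, and GRF7OE, plants carrying an OsGRF7 overexpression transgene and labelled GRF7OE-1, gave the other. The table heads the wild-type columns WT_YB, and neither the YB nor the ending of GRF7OE-1, which could number a line or a replicate, is explained there. OsGRF7 encodes a growth-regulating factor, a plant DNA-binding protein that acts in organ growth. The sources used here do not give the promoter of the transgene, the number of plants per library or the age in days. With 1 library in each group there is no measure of the spread between plants, and no p-value for the conditions is given. The levels of the 47 genes are a description only, since the mean level selected them.

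About 17021467 reads fell on genes in GRF7OE and about 16824988 in WT. OsGRF7 itself (OS12G0484900) stood at 70.7 FPKM in GRF7OE and 5.10 FPKM in WT, on the side its label says. Leaf markers were present: the 20 chlorophyll a-b binding protein and Rubisco small subunit genes ranged from 13.8 to 6141 FPKM in WT. All 20 were higher in GRF7OE, 18 of them when the FPKM columns were scaled to the same sum, and the part of this in the results below was not tested. In RNA from whole seedlings, fewer cells of a type and less RNA per cell cannot be told apart.

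Transposable elements are DNA segments that copy or move themselves within a genome. Retrotransposons, such as the copia, gypsy and LINE groups, move through an RNA copy made by a reverse transcriptase, and DNA transposons, such as the hAT, Mutator and CACTA groups, are cut out and reinserted by a transposase. Plants hold most of them silent with DNA methylation, repressive histone marks and small RNAs. Some transposases have lost mobility and become ordinary host genes: RICESLEEPER in rice and DAYSLEEPER in Arabidopsis are hAT-derived proteins needed for normal growth, and the FAR1 and FHY3 light-signalling factors derive from Mutator-like transposases.

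Most genes that bear such a description had no reads or a mean under 1 FPKM in these seedlings. Of the 179 genes 74 (41.3%) had 0 reads in both libraries, and 58 had reads but a mean under 1 FPKM. Over all genes of the table the share with 0 reads in both was 14.2%. A mean of 1 FPKM or more was reached by 26.3% of the 179 and by 65.6% of all genes. The gypsy class was the least often expressed of the classes with 20 or more genes, with 2 of 30 genes at that level and 17 of 30 without a read. Of 28 hAT genes 15 had no read and 7 reached the level. Of 23 CACTA genes 8 had no read and 7 reached it. Of 8 Mutator genes 4 reached it, of 8 copia genes 1, of 5 LINE genes 1, and of 3 PIF/Harbinger and 1 Tc1/mariner genes none. The remaining 38 unclassified and 35 other retrotransposon genes held 15 and 10 of the 47. Classes follow words of the descriptions, so hits to retrotransposon-like protein 1 counted as other retrotransposon and not as gypsy. An absence of reads at this depth does not show that an element was not transcribed.

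**Figure D1:**
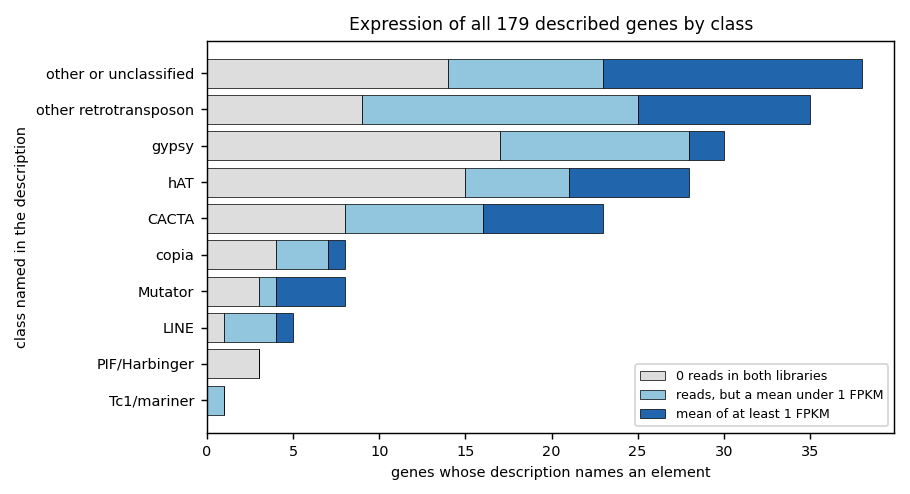
Number of genes (horizontal axis) whose description names each class of element (vertical axis), split by expression in the 2 libraries. Grey bars are genes with 0 reads in both, light blue bars genes with reads but a mean under 1 FPKM, and dark blue bars the 47 genes at 1 FPKM or more. Of the 30 gypsy genes 2 are dark blue and 17 grey.

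Each of the 47 genes has a description that names an element, but for many the other descriptions name another protein or are absent. The name of the set is therefore borne out for some of the 47 genes only. They fell into 4 kinds, a division made after the descriptions had been seen. In 7 genes Swiss-Prot names RICESLEEPER or DAYSLEEPER. In 5 genes it names another element. In 16 genes NR names an element but the best Swiss-Prot hit is a protein for which the rule has no word, such as a lipid transfer protein or a cytochrome P450. In 19 genes NR names an element and there is no Swiss-Prot hit. The STRING description, which the rule did not use, names a transposon or retrotransposon in 6 of the 7 sleeper genes. It does so in 0 of 5, 8 of 16 and 3 of 19 genes of the other kinds, with a description present in 4, 11 and 4 of them. The term for protein dimerisation, a property of hAT transposases, was attached to all 7 sleeper genes and to none of the other 40. The terms for RNA-directed DNA polymerase and for DNA integration, the activities of a mobile retrotransposon, were attached to 4 and 2 of the 47. Both terms were on OS02G0522100, of 77 residues, and OS06G0497600, of 46 residues. The first was also on OS01G0640100, of 227 residues, and OS11G0672600, of 552 residues. Whether any of the 4 encodes a working enzyme was not tested. Residues here and below are the listed length of the sequence searched, which can fall short of the whole protein. For example, the Rubisco small subunit genes OS12G0291100 and OS12G0274700 are listed at 23 and 175 residues.

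The words of NR also followed the chromosomes. Of the 35 genes among the 47 that were found through NR, 28 (80.0%) lie on chromosomes 3, 10, 11 and 12, and of the 12 found through Swiss-Prot 3 (25%). Among all 142 genes found through NR, whatever their level, the share was 61.3%, and among all 39 found through Swiss-Prot it was 23.1%. These chromosomes hold 29.6% of all genes of the table. Chromosome 12 alone held 27 of the 142, or 19.0%, against 5.74% of all genes, while chromosome 9 held 2. Positions here are chromosomes read from the gene identifiers.

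**Figure D2:**
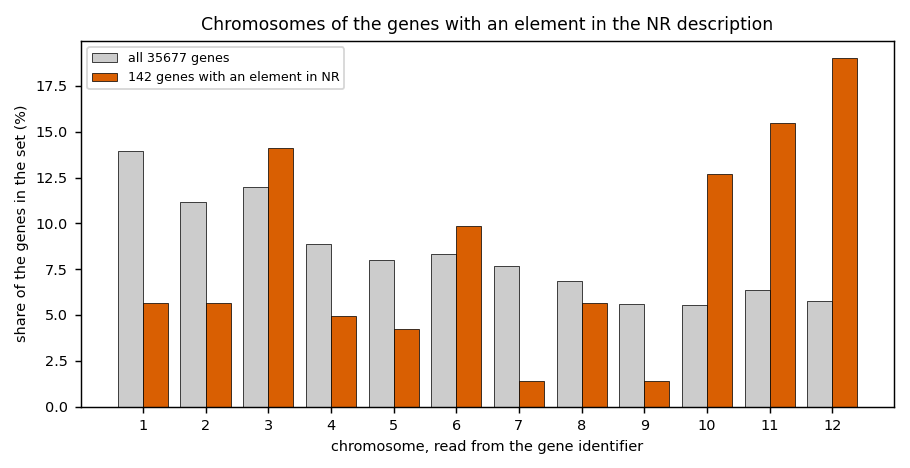
Share of genes (vertical axis, percent) on each of the rice chromosomes (horizontal axis), for all 35677 genes (grey) and for the 142 genes whose NR description names an element (orange). The orange bars exceed the grey bars on chromosomes 3, 6, 10, 11 and 12, with 19.0% against 5.74% on chromosome 12.

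No gene of the set differed between the libraries by 2-fold on the main scale, but more of them were lower than higher in GRF7OE. On that scale, log2((GRF7OE FPKM + 1)/(WT FPKM + 1)), 0 of 47 reached 2-fold higher, where 3.24% of 23397 genes at this level did. None reached 2-fold lower either, against 1.25%, so that 0 of 47 stood against a background of 4.49% for both directions together. A ratio below 0 was found in 37 of 47 genes, or 78.7%, where the background was 51.7%. The median log2 ratio was -0.24 against -0.01 over all 23397 genes. It was -0.067 over the 105 described genes with any read and -0.13 in the 12 found through Swiss-Prot. With the FPKM columns scaled to the same sum, 39 of the 47 and 14329 of the 23397 genes were below 0. Within 1.5-fold lay 41 of 47 genes, or 87.2%, close to 86.0% of all genes. The 47 genes took 0.106% of the reads in GRF7OE and 0.132% in WT.

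Brackets after a plain FPKM ratio hold its 95% interval, computed exactly (Clopper-Pearson) from the reads. It reflects counting error alone and leaves out how much plants differ. That interval lay below 1 in 20 genes, against a background of 25.2%, and above 1 in 3 genes, against a background of 24.4%. In the other 24 genes it held 1. The authors' deposited table calls none of the 47 significant, where it calls 1.75% of the 23397 genes, and its smallest FDR in the set is 0.436. Those p-values compare the 2 libraries and not the conditions. On the plain scale the ratio was at least 2 in 1 gene, against a background of 5.22%, and at most 1/2 in 4 genes, against a background of 2.34%.

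**Figure D3:**
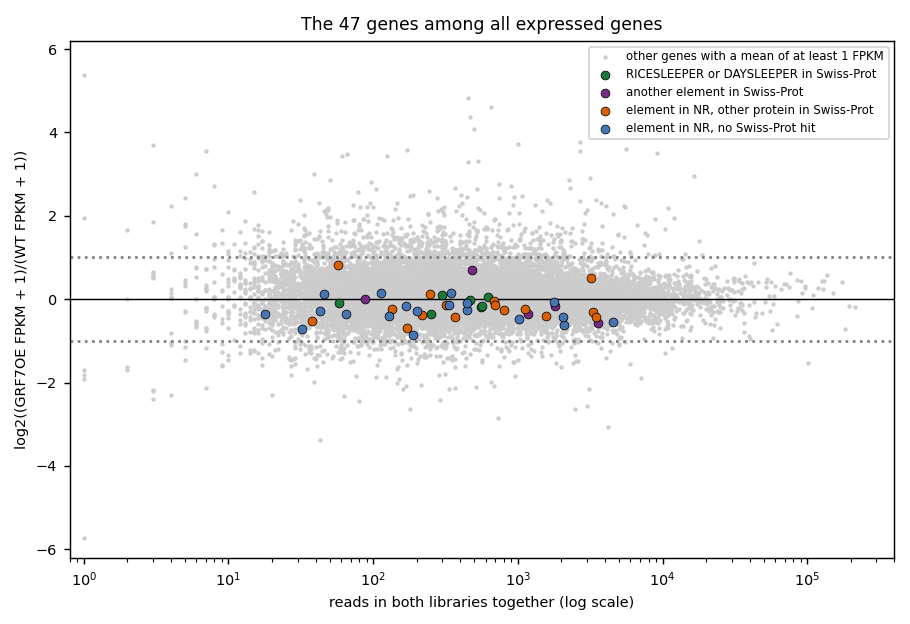
Log2 ratio of GRF7OE to WT with a pseudocount of 1 FPKM (vertical axis) against the reads of both libraries together (horizontal axis, log scale), for the 47 genes coloured by kind of description and for all other genes with a mean of 1 FPKM or more (grey). Dotted lines mark 2-fold. All 47 lie between the dotted lines, 37 of them below 0.

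Of the RICESLEEPER and DAYSLEEPER genes 5 of 7 were below 0, against a background of 51.7%. Every one was within 1.5-fold on the scale with the pseudocount, where 86.0% of all genes were. The median log2 ratio of the 7 was -0.09. All were modestly expressed, from 1.11 to 5.07 FPKM in GRF7OE and from 1.24 to 5.37 FPKM in WT. OS03G0733400, which the table gives at 100% similarity to rice RICESLEEPER 2, was at 1.14 FPKM in GRF7OE and 1.73 FPKM in WT, from about 102 and 147 reads. It was 1.51-fold lower [1.17 to 1.97], the 1 sleeper gene whose interval left out 1. The other 6 had similarities between 47% and 56% to the named protein and are relatives of it rather than the named gene.

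OS01G0698300, with a RICESLEEPER 2 hit, was at 4.56 FPKM in GRF7OE and 5.37 FPKM in WT. OS03G0822100, also with a RICESLEEPER 2 hit, was at 4.59 and 5.28 FPKM. Their ratios of 0.850 [0.717 to 1.01] and 0.870 [0.735 to 1.03] were within counting error. OS05G0102300, the DAYSLEEPER relative, was at 4.56 FPKM in GRF7OE and 4.67 FPKM in WT, a ratio of 0.976 [0.811 to 1.17]. The RICESLEEPER 4 relatives were the ones slightly above WT: OS08G0180500 was at 5.07 and 4.85 FPKM, a direction that turned to a log2 ratio of -0.023 with the columns scaled to the same sum, and OS02G0254550 was at 2.86 and 2.62 FPKM. OS07G0624100, with a RICESLEEPER 3 hit, was at 1.11 and 1.24 FPKM on about 28 and 30 reads. Of these 7 genes 6 carry the orthologous group KOG1121, which 37 genes of the table carry. Outside the 179 genes, 2 others with it reached a mean of 1 FPKM. OS01G0111400 was at 4.56 FPKM in GRF7OE and 4.20 FPKM in WT, and OS04G0628400 at 10.3 and 11.05 FPKM, with both intervals holding 1.

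Against backgrounds of 25.2% and 24.4%, the 5 genes for which Swiss-Prot names another element held 3 intervals below 1 and 1 above it. The best hit of 3 of them is retrotransposon-like protein 1, in mammals an imprinted gene derived from a gypsy-type retrotransposon, at 49% to 60% similarity. For the same genes STRING names proteins of other kinds. OS03G0302200, a PHD-finger protein in STRING, was at 14.6 FPKM in GRF7OE and 22.3 FPKM in WT, 1.52-fold lower [1.42 to 1.63] on about 1426 and 2146 reads. OS06G0139700, a coiled-coil protein in STRING, was at 20.6 and 26.6 FPKM, 1.29-fold lower [1.15 to 1.45]. OS01G0527400, with a BAH domain in STRING, a domain of chromatin proteins, was at 14.2 and 16.0 FPKM, 1.13-fold lower [1.03 to 1.24].

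OS01G0134900 went the other way. Its hit is the Pol polyprotein of Bs1, a maize retroelement known for carrying fragments of host genes, and STRING describes the gene as a glycosyl hydrolase of family 10, the family of xylanases. It was at 9.78 FPKM in GRF7OE and 5.68 FPKM in WT, 1.72-fold higher [1.43 to 2.08] on about 301 and 184 reads. OS02G0522100, whose hit is the polyprotein of the fission yeast retrotransposon Tf2, was at 1.08 FPKM in GRF7OE and 1.06 FPKM in WT, a ratio of 1.01 [0.653 to 1.58] whose log2 value with the pseudocount was -0.037 with the columns scaled to the same sum.

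**Figure D4:**
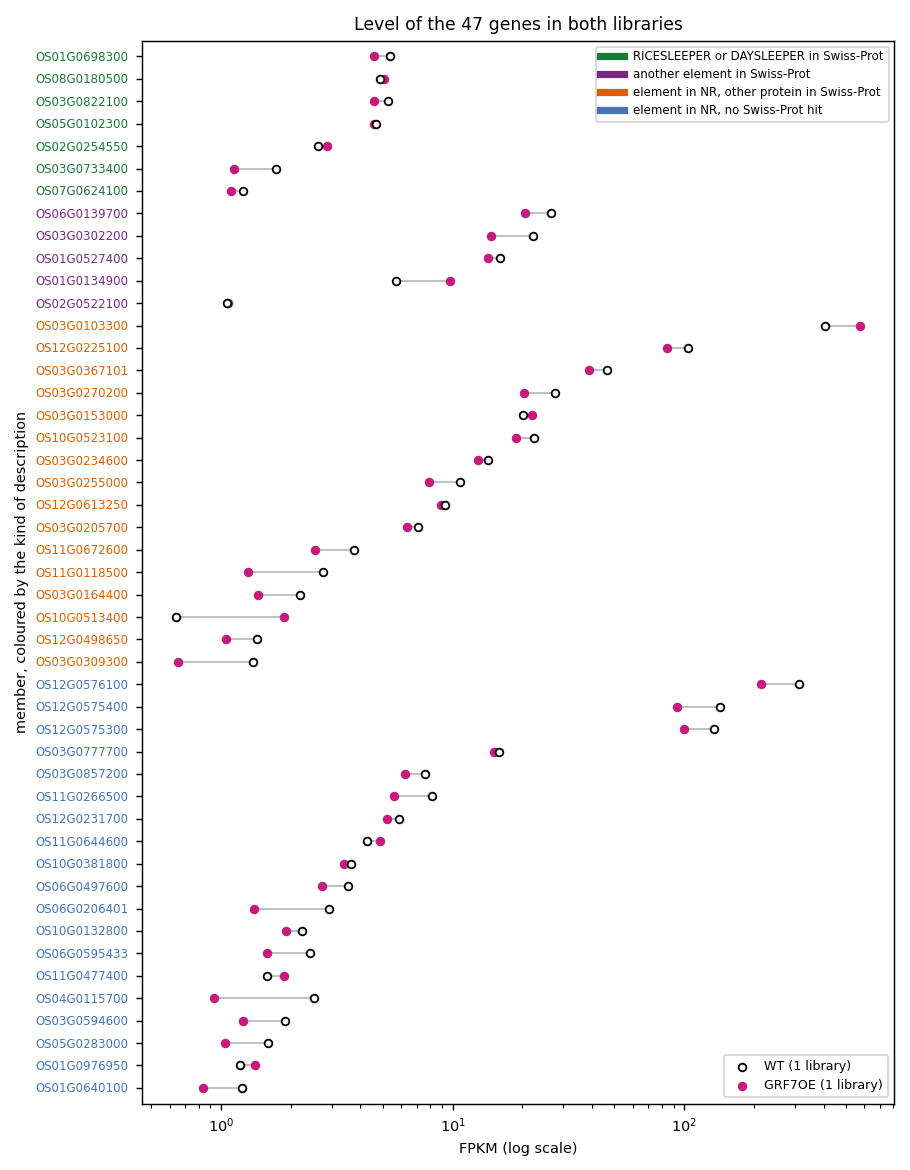
FPKM (horizontal axis, log scale) of each of the 47 genes (vertical axis) in WT (open circles) and in GRF7OE (filled circles), with 1 library per group and identifiers coloured by kind of description. The filled circle lies left of the open circle in 37 genes. The highest gene is OS03G0103300 at 576 FPKM in GRF7OE and 407 FPKM in WT.

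The genes with an element in NR and another protein in Swiss-Prot included the most abundant gene of the set and the gene with the largest ratio. Of these 16 genes 9 had an interval below 1 and 2 above it, against backgrounds of 25.2% and 24.4%. A log2 ratio below 0 was found in 13, against a background of 51.7%, with a median of -0.25. OS03G0103300, called a Ty1-copia retrotransposon protein in NR, has 89% similarity over its best stretch to EARLI 1, a small lipid transfer protein of Arabidopsis induced by aluminium. It was at 576 FPKM in GRF7OE and 407 FPKM in WT, 1.42-fold higher [1.32 to 1.52]. It is the only copia-class gene among the 47.

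Cytochrome P450 and dioxygenase genes, the enzyme families of much plant secondary metabolism, made up 3 of the 16. OS10G0513400 has 63% similarity to cytochrome P450 89A2 and was at 1.88 FPKM in GRF7OE and 0.638 FPKM in WT, 2.95-fold higher [1.60 to 5.72]. It rested on about 42 reads in GRF7OE and 15 in WT, and its log2 ratio with the pseudocount was 0.81. OS10G0515900, another gene of chromosome 10 with a P450 89A2 hit, is outside the 179 because only its STRING description names a transposon. It was named after its values were seen, and stood at 2.72 FPKM in GRF7OE and 0.817 FPKM in WT. The other 2 expressed genes of chromosome 10 with the same hit and label were within counting error, OS10G0513900 at 2.21 and 2.53 FPKM and OS10G0515200 at 17.65 and 18.08 FPKM. OS03G0367101, with a hit to flavonoid 3',5'-hydroxylase, the P450 that leads to blue anthocyanins, was at 38.8 and 46.5 FPKM, 1.20-fold lower [1.04 to 1.38]. The table pairs the same MSU locus with a further gene, and how reads were split between the pair is uncertain. OS10G0523100, a homologue of the ethylene-forming enzyme 1-aminocyclopropane-1-carboxylate oxidase, was at 18.8 and 22.5 FPKM, 1.19-fold lower [1.06 to 1.34].

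RNA-binding proteins were another 3. OS12G0225100, with a hit to the La-related protein 6B of Arabidopsis, was at 83.9 FPKM in GRF7OE and 104 FPKM in WT, 1.23-fold lower [1.15 to 1.32]. OS03G0270200, with a hit to the human G patch protein GPATCH8, was at 20.4 and 27.6 FPKM, 1.35-fold lower [1.26 to 1.45]. OS03G0153000, listed at 78 residues and with a hit to the splicing factor RBM39, was at 22.0 and 20.0 FPKM and within counting error at 1.10 [0.848 to 1.42].

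BTB/POZ proteins, adaptors that bring substrates to a ubiquitin ligase, are called Mutator transposon proteins in NR in 3 cases. OS11G0118500 was at 1.30 FPKM in GRF7OE and 2.75 FPKM in WT, 2.11-fold lower [1.52 to 2.96] on about 56 and 116 reads. The other 2 were within counting error: OS12G0613250 was at 8.94 and 9.29 FPKM, and OS03G0205700, with a hit to NPY2, of a family that acts in auxin-regulated organ formation in Arabidopsis, at 6.36 and 7.08 FPKM. FAR1-RELATED SEQUENCE 5 was the Swiss-Prot hit of 2 genes, and both were lower. OS03G0255000 was at 7.88 FPKM in GRF7OE and 10.7 FPKM in WT, 1.36-fold lower [1.23 to 1.51], and OS03G0164400 at 1.44 and 2.19 FPKM, 1.52-fold lower [1.15 to 2.01].

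The remaining 4 of this kind were each of another sort. OS11G0672600, a retrotransposon protein in NR, has 47% similarity to a LINE-1 reverse transcriptase homologue in Swiss-Prot, a name that the words of the rule do not reach, and is the only LINE-class gene of the set. It was at 2.56 FPKM in GRF7OE and 3.75 FPKM in WT, 1.47-fold lower [1.19 to 1.82] on about 150 and 220 reads. OS03G0309300, a gypsy-class protein in NR with a hit to a glycine-rich cell wall protein, was at 0.651 and 1.37 FPKM, 2.11-fold lower [1.03 to 4.59] on about 12 and 26 reads. OS03G0234600, with a hit at 40% similarity to the yeast endocytosis protein PAN1, was at 12.9 and 14.2 FPKM. OS12G0498650, a receptor-like kinase, was at 1.05 and 1.43 FPKM. Both of these were within counting error.

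Among the 19 genes with an element in NR and no Swiss-Prot hit, 16 were below 0, against a background of 51.7%. The median log2 ratio of the 19 was -0.29. The interval lay below 1 in 7 of them and above 1 in none, against backgrounds of 25.2% and 24.4%. A listed length of 100 residues or fewer was found for 6 of the 19 and for 10 of the 47, or 21.3%, against 12.2% of all genes at this level. Whether these genes encode short proteins was not tested, since the listed length can fall short of the protein. A group of 3 genes on chromosome 12 led in abundance. OS12G0576100, OS12G0575400 and OS12G0575300 are each listed at 102 residues and share the same best hit in NR, a protein called CACTA transposon. Their annotation is that of a cysteine-type peptidase. OS12G0576100 was at 215 FPKM in GRF7OE and 313 FPKM in WT, 1.45-fold lower [1.37 to 1.54].

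OS12G0575400 was at 93.3 FPKM in GRF7OE and 143 FPKM in WT, 1.53-fold lower [1.40 to 1.68]. OS12G0575300 was at 99.5 and 135 FPKM, 1.35-fold lower [1.24 to 1.48]. Together they had 408 FPKM in GRF7OE and 590.2 FPKM in WT. Reads of such like copies can be divided among them by the authors' counting, so the 3 ratios are not independent and the split is uncertain.

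OS04G0115700, an unclassified retrotransposon protein in NR and listed at 53 residues, had the lowest ratio of the 47 genes. It was at 0.928 FPKM in GRF7OE and 2.52 FPKM in WT, 2.71-fold lower [1.92 to 3.91] on about 43 and 145 reads, with a log2 ratio of -0.87. From the normalised counts in place of FPKM that ratio was -1.72, and the reason for the gap between the measures was not tested. OS11G0266500, listed at 41 residues, was at 5.57 and 8.14 FPKM, 1.46-fold lower [1.29 to 1.66]. OS06G0595433, a putative transposase that STRING places in the CACTA group, was at 1.58 and 2.42 FPKM, 1.53-fold lower [1.06 to 2.22]. OS03G0857200, a CACTA-class gene listed at 48 residues, was at 6.24 and 7.61 FPKM, 1.22-fold lower [1.01 to 1.48].

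The other 12 genes of this kind were within counting error. The most abundant was OS03G0777700, a putative transposase at 15.1 FPKM in GRF7OE and 15.8 FPKM in WT. OS06G0206401 was at 1.39 and 2.92 FPKM, a ratio of 0.477 [0.202 to 1.05] on about 10 and 22 reads. OS03G0594600, which has the same best hit in NR, was at 1.24 and 1.88 FPKM on about 7 and 11 reads. OS05G0283000, a gypsy-class gene listed at 42 residues, was at 1.04 and 1.60 FPKM, a ratio of 0.650 [0.380 to 1.10]. The 3 genes above WT were OS11G0644600 at 4.87 against 4.27 FPKM, OS11G0477400 at 1.87 against 1.59 FPKM and OS01G0976950 at 1.40 against 1.21 FPKM.

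The remaining 5 genes were below WT. OS12G0231700 was at 5.22 FPKM in GRF7OE and 5.85 FPKM in WT, OS10G0381800 at 3.39 and 3.65 FPKM, and OS06G0497600 at 2.73 and 3.53 FPKM. OS10G0132800 was at 1.91 and 2.23 FPKM, and OS01G0640100 at 0.833 and 1.24 FPKM.

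**Figure D5:**
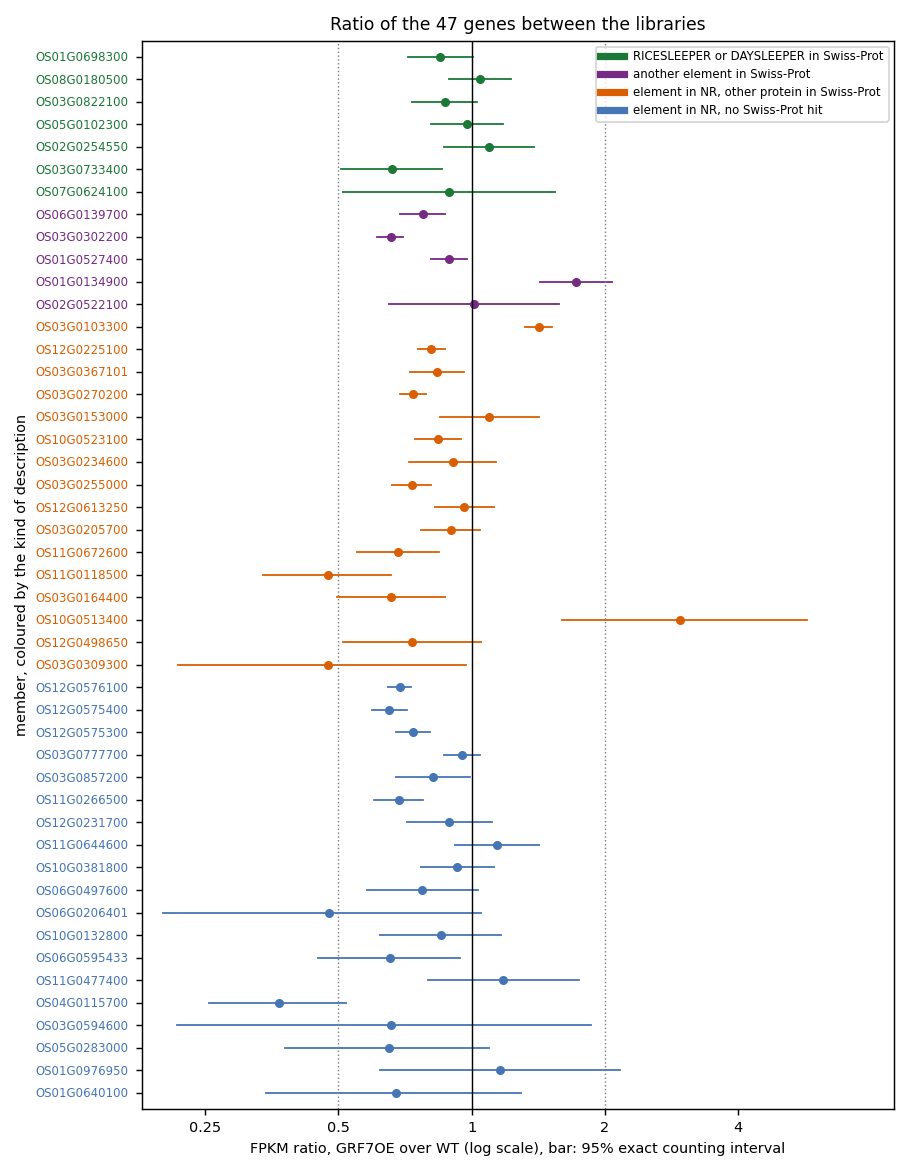
FPKM ratio of GRF7OE to WT (horizontal axis, log scale) of each of the 47 genes (vertical axis), with the 95% exact counting interval as a bar and colours by kind of description. The bar lies wholly left of 1 in 20 genes and wholly right of 1 in 3, which are OS10G0513400, OS01G0134900 and OS03G0103300.

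The level of 1 FPKM left out the described gene with the widest gap between the libraries. OS06G0658400, a protein in NR with a hAT dimerisation domain, had about 139 reads in GRF7OE and 0 in WT, at 1.94 FPKM and 0 FPKM. Set against a floor of 3 reads per library it was at least 46.8-fold higher in GRF7OE. It is the 1 gene of the 179 that the authors' deposited table calls significant, with an FDR of 0.000218. The genes just under the level on either side of it were OS03G0581100 at 1.08 FPKM in GRF7OE and 0.904 FPKM in WT, and OS10G0195175 at 0.957 and 0.857 FPKM. Just above the level were OS02G0522100, OS01G0640100 and OS03G0309300, whose values are given above. In 4 of the 47 genes 1 library was under 1 FPKM, GRF7OE in 3 of them and WT in 1.

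Among the 132 genes under the level, 20 had 10 or more reads in 1 library, and 13 of the 20 had a ratio below 0. Besides OS06G0658400, 6 of the 20 had an interval that left out 1, and they are named for that, after their values were seen. The 3 lower in GRF7OE were the gypsy-class OS12G0432301, at about 12 reads in GRF7OE and 26 in WT, the gypsy-class OS09G0482821, at about 28 and 47, and the hAT-class OS05G0583200, at about 34 and 53. The 3 higher were OS12G0109700, an unclassified retrotransposon protein at about 26 reads against 6, 4.30-fold higher [1.73 to 12.8], OS12G0447932 at about 40 against 17, and OS02G0286500 at about 10 against 1, a ratio of 10.7 [1.52 to 463]. Together the 132 genes had 672 reads in GRF7OE and 567 in WT, and 139 of the 672 were those of OS06G0658400. Reads in a single library were found in 12 genes for GRF7OE and 10 for WT, mostly on 1 to 3 reads.

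STRING names a transposon or retrotransposon in 170 further genes at this level, a comparison added after the data were seen. Of these 99, or 58.2%, had a log2 ratio below 0, with a median of -0.08, against the background of 51.7%. Of the 170 genes 6 were 2-fold higher and 2 were 2-fold lower on the main scale, close to backgrounds of 3.24% and 1.25%. The interval lay below 1 in 58 and above 1 in 27, against backgrounds of 25.2% and 24.4%. The 170 include 16 FAR1-family genes, all below 0 with 12 intervals below 1. Without those, 83 of 154 genes, or 53.9%, were below 0, with 46 intervals below 1 and 27 above. Their Swiss-Prot hits also include ordinary enzymes: OS04G0600300, with a hit to the mitochondrial ubiquinol oxidase 1a, was at 7.14 FPKM in GRF7OE and 1.49 FPKM in WT, the largest log2 ratio of the 170.

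The FAR1 family has 22 further expressed genes beside the 2 among the 47. Of all 23397 genes at this level 12095 were below 0. The count was 14329 with the columns scaled to the same sum and 11687 with the median ratio scaled to 1. All 22 FAR1-family genes had a log2 ratio below 0, under each of the 3 scalings of the columns, with a median of -0.29. The interval lay below 1 in 16 of them, against the background of 25.2%, and held 1 in 6. None was 2-fold apart, where 4.49% of all genes were. OS07G0141500, a FAR1-RELATED SEQUENCE 8 relative, was at 1.92 FPKM in GRF7OE and 3.49 FPKM in WT, 1.82-fold lower [1.45 to 2.29]. OS04G0615900, a FAR1 relative, was at 2.23 and 3.65 FPKM, OS01G0519700 at 6.04 and 9.05 FPKM, and OS04G0443000 at 3.27 and 4.76 FPKM.

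A list of 50 expressed genes of DNA methylation and small RNA silencing held ratios in both directions, with none at 2-fold on the main scale, where 4.49% of all genes were. It includes 5 genes with a DEMETER or ROS1 hit, DNA glycosylases that remove methylation and so work against silencing. Of the 50 genes 37 had a log2 ratio below 0, against the background of 51.7%, and their median was -0.18. With the columns scaled to the same sum 40 were below 0, against 14329 of all 23397 genes. With the median ratio scaled to 1 it was 36, against 11687 of the 23397. The interval lay below 1 in 23 and above 1 in 4, against backgrounds of 25.2% and 24.4%. Among the 5 glycosylase genes it lay below 1 in 3, and among the other 45 it lay below 1 in 20 and above 1 in 4. OS02G0736200, an RNA-dependent RNA polymerase 1 relative of the kind that makes double-stranded RNA, was at 7.61 FPKM in GRF7OE and 13.6 FPKM in WT, 1.78-fold lower [1.59 to 1.998]. The Dicer 4 gene OS04G0509300, whose product cuts such RNA, was at 8.68 and 13.2 FPKM, 1.52-fold lower [1.39 to 1.68]. A pair of maintenance DNA methyltransferase genes were higher, the chromomethylase OS10G0104900 at 10.2 and 5.96 FPKM, 1.71-fold [1.42 to 2.07], and MET1b (OS07G0182900) at 6.47 and 4.10 FPKM, 1.58-fold [1.27 to 1.97]. The other DNA methyltransferase genes of the list were not higher. Ratios were 0.736 [0.671 to 0.808] for OS05G0133900 (DRM1 hit), 0.859 [0.739 to 0.998] for OS01G0612000 and 0.895 [0.814 to 0.984] for OS03G0110800 (DRM2 hit). OS05G0224800, with a chromomethylase 2 hit, was at 0.888 [0.780 to 1.01], within counting error.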

How the data were processed

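RNA of 1 WT and 1 GRF7OE library was analysed from 1 deposited table. The submitters' processing notes name Bowtie and Cuffdiff. They give no version for either, and the build of the genome is not stated in the labels or file headers. The FPKM columns are the authors' values per transcript length and library size, per the file headers. The count columns are the authors' normalised read count, a signal whose step for 1 read is 0.963 in the GRF7OE column and 0.954 in the WT column. For 99.3% and 99.2% of values between 0 and 10000, division by the step gave a whole number to within 0.05, so reads are given as "about". The deposited p-value and FDR come from the authors' comparison. The authors' log2 ratio was not used, nor a column of directions whose header names GRF7_RNAi.

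Ratios with a pseudocount of 1 FPKM understate differences of low genes, so plain ratios of named genes are given too. Their 95% intervals scale the exact interval of the reads to the FPKM ratio. The FPKM ratio was over 10% from the normalised count ratio in 2 of the 47 genes. A floor of 3 reads replaces 0.

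Members, classes and lists were chosen with earlier results of these data known. The rule for named genes took the 10 most abundant members, the 10 highest and 10 lowest log2 ratios, 2 per class, 3 on each side of the 1 FPKM level and, of the silencing and FAR1 lists, the 4 farthest from 0. The other members are given for completeness. The division into kinds, the sets defined by STRING and KOG and the genes named from them and from the genes under the level were chosen after the data were seen. The splits by FAR1 family and by glycosylases, and the methyltransferase genes named beyond the 4 of the silencing list, were added likewise. The silencing and FAR1 lists come from words in the same descriptions. Similarities are the table's own. No sequences are given. The 2-fold count and the interval were tried on simulated reads that held counting error alone. Such reads cannot show how much plants differ or how reads are split among like copies. Alternatives changed the pseudocount, filter, scaling, measure, fold and choice of members. The software was Matplotlib 3.10.9, pandas 2.3.3, SciPy 1.17.1 and NumPy 2.4.6 under Python 3.11.15.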

Additional observations from a re-analysis of the deposited data

How the results depend on the processing

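The number of genes at 2-fold on the log2 scale moved with the pseudocount. At 0.1 FPKM it was 1 higher and 3 lower, at 0.5 FPKM 1 and 1, and from normalised counts 1 and 4. Without a filter on the mean 1 was higher and 0 lower, and at 1.5-fold 2 were higher and 4 lower. The median log2 ratio of -0.24 stayed below 0 in every alternative run. It was -0.26 at both other pseudocounts, -0.25 at a mean of 5 FPKM or more, -0.067 without a filter (105 genes) and -0.33 with the columns scaled to the same sum. It was -0.21 from normalised counts, -0.13 in the 12 genes found through Swiss-Prot, -0.28 in the 35 found through NR and -0.20 without genes that share an MSU identifier. The counts of 20 intervals below 1 and 3 above it became 27 and 3 with the columns scaled to the same sum, and 19 and 3 both with the median ratio scaled to 1 and from normalised counts, alternatives chosen after seeing the data. Of 145 values of 29 single genes 140 stayed within counting error, 3 moved beyond it, and 2 turned sign when the columns were scaled to the same sum: OS08G0180500 to -0.023 and OS02G0522100 to -0.037. No paired analysis was possible because each group is 1 library. Depth limits the low genes most: all 8 of the 47 with under 30 reads in a library had an interval spanning more than 2-fold.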
